A study of Rattus norvegicus with 19 samples.

Results

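Interferon response genes are the genes that a cell switches on once interferon has bound its receptor. A list of 41 symbols of such genes was looked up by symbol in the deposited counts, and 38 of them were found among the 17455 genes of every library. Herc6, Xaf1 and Nlrc5 were not analysed here. All 38 genes passed the filter on low counts that left 12388 genes for testing, and the lowest count of any of them was 10, for Zbp1 in EMPA + PFD replicate 3. As background, type I interferons signal through the kinases Jak1 and Tyk2 to a complex that holds Stat2 and Irf9 and binds interferon-stimulated response elements in promoters, while interferon gamma acts at gamma-activated sites. The induced proteins sense foreign RNA and DNA, degrade RNA, hold back translation or attach the ubiquitin-like protein Isg15 to other proteins. In the heart this response is best known from viral myocarditis.

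The 19 libraries were made from RNA of the left ventricles of wildtype Sprague-Dawley rats, aged 24 weeks when the study began and all labelled male. Control 5w (3 libraries) came from rats without disease at week 5, on normal chow and without L-NAME, and control 9w (3 libraries) from such rats at week 9. HFpEF (3 libraries) stands for heart failure with preserved ejection fraction, brought about by 5 weeks of L-NAME, which blocks nitric oxide synthase, at 0.5 g/L of drinking water together with a diet that had 60% of its energy as fat. The other 4 groups were such rats at week 9, after 4 further weeks of daily gavage. The gavage held PBS alone in untreated (3 libraries), 0.35 g/kg/day of empagliflozin, an SGLT2 inhibitor, in EMPA (2 libraries), 0.3 g/kg/day of pirfenidone, an antifibrotic drug, in PFD (2 libraries), and both drugs at these doses in EMPA + PFD (3 libraries). Total counts of the libraries were between 7.4e6 and 1.3e7. Levels are given as CPM, counts scaled to a common library total of 1e6 after TMM normalization, in the order of the replicate numbers, and were not compared between genes because gene lengths were not at hand, except that the marker with the most CPM is named for each list.

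The libraries split in ways that the labels do not give, and these splits stand before every result below. Eif2s3y lies on the Y chromosome and had 0 counts in HFpEF replicates 1 and 3, in all 3 untreated libraries and in both PFD libraries, and 613 to 1321 counts in the other 12, although every heart is labelled male. Ddx3, as the files spell it, had 0 counts in the same 7 libraries and 855 to 1468 in the other 12, and Xist was not analysed here. RT1-CE16, a gene of the rat major histocompatibility complex, had 0 to 3 counts in every library of control 5w, HFpEF and EMPA and 308 to 922 counts in every other library. Untreated therefore differed in Eif2s3y from control 9w, EMPA and EMPA + PFD, and in RT1-CE16 from HFpEF and EMPA, and control 9w differed in RT1-CE16 from control 5w. For those comparisons the split and the group cannot be told apart. Some libraries also stood apart from the others of their groups in markers of cell types, whose levels are given further on: control 5w replicate 1 and untreated replicate 2 in heart muscle and connective tissue, and HFpEF replicate 1 in heart muscle. In atrium these were untreated replicate 2, control 9w replicates 1 and 3 and HFpEF replicate 2. In macrophages they were control 5w replicate 1, untreated replicate 2 and the 3 HFpEF libraries. The 2 EMPA libraries differed in atrium, NK cells, neutrophils, erythroid cells, smooth muscle and connective tissue. The 2 PFD libraries differed in atrium, NK cells and neutrophils.

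Taken over the 38 genes, the response was low in control 5w, high in HFpEF and control 9w, and in between or low in the other groups at week 9. The mean of log2 CPM over the genes was 4.42, 4.82 and 4.75 in control 5w and 5.14, 5.58 and 5.40 in HFpEF. At week 9 it was 5.45, 5.71 and 5.11 in control 9w and 4.92, 4.93 and 5.10 in untreated. It was 5.28 and 4.93 in EMPA, 5.21 and 4.84 in PFD and 4.93, 4.50 and 4.56 in EMPA + PFD. Every HFpEF and every control 9w library lay above every control 5w library and above every untreated library, and control 9w replicate 3 and HFpEF replicate 1 were the lowest of their groups. Of the 38 genes, 22 had their highest group mean in control 9w and 11 in HFpEF, and 19 had their lowest in EMPA + PFD and 14 in control 5w. The order of the group means was not counted over all genes, so these counts are not shown to be particular to the 38. In whole tissue, more cells that express a gene and more RNA of it per cell cannot be told apart.

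**Figure D1:**
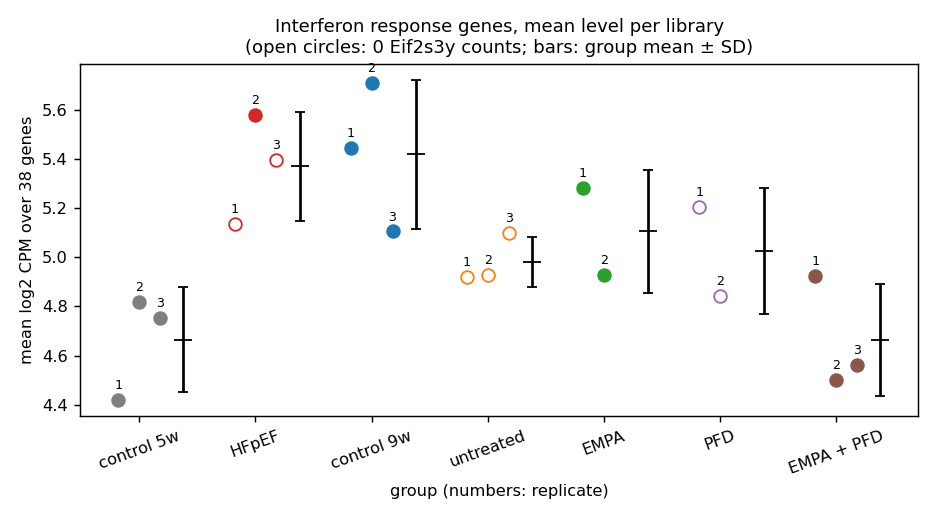
Mean log2 CPM over the 38 interferon response genes (vertical axis) in each of the 19 libraries, by group (horizontal axis), with the replicate number above each point, open circles for the 7 libraries with 0 counts of Eif2s3y, and bars for the group mean ± SD. The 3 control 5w libraries lie lowest together with EMPA + PFD replicates 2 and 3, and control 9w replicate 2 lies highest at 5.71.

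The comparison of HFpEF with control 5w asks what disease changed by week 5. The log2 fold change was above 0 for all 38 interferon response genes, Lgals3bp at 0.00, with a median of 0.70, beside a median of 0.02 over all 12388 genes. Differentially expressed genes (DEGs) were those at an adjusted p under 0.05 in the quasi-likelihood F test of edgeR (Benjamini-Hochberg adjustment over the 12388 genes) and with a log2 fold change of at least 1 in size. 9 of the 38 were DEGs with higher levels, beside 4.28% of all genes, and these were Ifit2, Ifit3, Mx1, Mx2, Oas1a, Oasl, Isg20, Dhx58 and Rtp4. At the adjusted p alone 14 were higher, beside 9.83%, which added Irf9, Isg15, Ube2l6, Parp9 and Ifi44. 0 were lower by either rule in edgeR, beside 4.41% and 10.2% of all genes, and 0 were lower DEGs with DESeq2. At an unadjusted p under 0.05 24 were higher and 0 lower, beside 35.8% of all genes in either direction. A fit to the libraries of these 2 groups alone called 4 of the 38 and 460 of all genes, from 1076. With HFpEF replicate 2, the HFpEF library that holds Eif2s3y counts, as the only HFpEF library, 11 and 813 were DEGs and the median was 0.82, where the lone library is assumed to vary like those of the other groups.

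Control 9w was compared with control 5w to see what changed between the weeks without disease. The median log2 fold change of the interferon response genes was 0.73, beside -0.04 over all genes. 16 of the 38 were DEGs with higher levels, beside 7.46% of all genes. They were the transcription factors Irf7 and Irf9, the RNA helicase Dhx58, the effectors Ifit2, Ifit3, Mx1, Mx2, Oas1a, Oas2, Oasl and Isg20, Isg15 and the ligase Trim25, and Ifi27, Ifi44 and Rtp4. At the adjusted p alone 22 were higher, beside 17.3%. Samhd1 was the 1 gene lower at the adjusted p, beside 17.2%. 0 were DEGs with lower levels in edgeR, beside 7.21%, and 0 with DESeq2. At an unadjusted p under 0.05 24 were higher and 2 lower, beside 45.4% of all genes in either direction. This comparison and the one of HFpEF with control 5w share the control 5w libraries, so their values are only given side by side.

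The comparison of untreated with control 9w asks what disease changed by week 9. Of the 38 interferon response genes, 30 had a log2 fold change below 0, with a median of -0.56, beside 0.01 over all genes. Oas2 and Irf7 were the 2 DEGs, both lower, beside 0.573% of all genes. At the adjusted p alone Irf9 and Eif2ak2 were lower as well, which makes 4, beside 1.19%, and Samhd1 was the 1 gene that was higher, beside 0.589%. 0 were DEGs with higher levels in edgeR, beside 0.339%, and 0 with DESeq2. At an unadjusted p under 0.05 2 were higher and 19 lower, beside 18.2% of all genes in either direction. The count of DEGs moved with single libraries and was 0 without control 9w replicate 2 or untreated replicate 1 (of all genes 7 and 14), 1 without control 9w replicate 1 or untreated replicate 3 (21 and 28), and 4 without control 9w replicate 3 (118). With a term for the presence of Eif2s3y counts, which only HFpEF can estimate within a group, 0 of the 38 were DEGs and 2 of all genes, from 113, and the median was -0.25. DESeq2 called 5 (of all genes 297), a replicate block 1 (62), and the fit without both control 5w replicate 1 and untreated replicate 2, named 2 libraries left out below, called 5 (510). Without control 9w replicate 2 the median was -0.35. In what follows, fold stands for the range of the log2 fold change over the alternatives.

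For 30 of the 38 genes the change with disease was above 0 at week 5 and below 0 at week 9. All 38 were above 0 at week 5, so this count repeats the 30 that were below 0 at week 9. The share of all genes with these signs was not counted. The difference between the changes was tested as its own contrast, which shares no library between its sides. 16 of the 38 were DEGs of this contrast, all lower at week 9, beside 5.67% of all genes. They were Ifit2, Ifit3, Mx1, Mx2, Oas1a, Oas2, Oasl, Isg20, Irf7, Irf9, Dhx58, Isg15, Ube2l6, Ifi27, Ifi44 and Rtp4. Stat2, Usp18, Parp9 and Eif2ak2 joined them at the adjusted p alone, which makes 20, beside 10.2%. 0 were higher by either rule in edgeR, beside 6.35% and 9.76%, and 0 were higher DEGs with DESeq2. At an unadjusted p under 0.05 1 was higher and 25 lower, beside 35.3% of all genes in either direction. The median over the 38 was -1.01, beside -0.02 over all genes. The count of DEGs was 15 to 21 with any 1 of the 12 libraries left out, 16 with the term for Eif2s3y (of all genes 1246) and 20 with HFpEF replicate 2 as the only HFpEF library (1468).

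**Figure D2:**
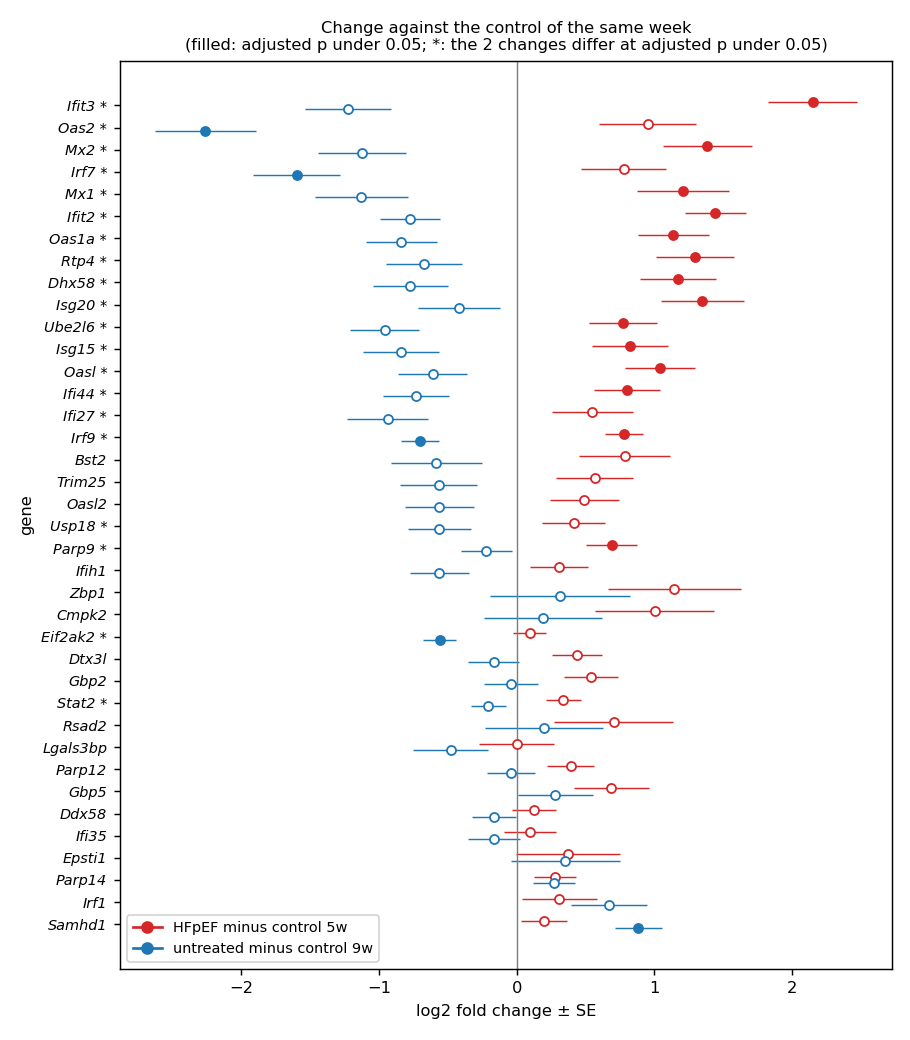
Log2 fold change ± SE (horizontal axis) of each of the 38 interferon response genes (vertical axis, ordered by the difference between the changes) for HFpEF minus control 5w in red and untreated minus control 9w in blue, filled where the adjusted p was under 0.05, with a star on the 20 genes whose changes differed at an adjusted p under 0.05. Ifit3 (2.15 against -1.23) stands at the top and Samhd1, the 1 gene with a called rise in untreated, at the bottom.

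From HFpEF at week 5 to untreated at week 9, 33 of the 38 genes had a log2 fold change below 0, with a median of -0.40, beside -0.01 over all genes. 0 were DEGs in edgeR with lower levels and 0 with higher, beside 0.0807% and 0.113% of all genes. At an unadjusted p under 0.05 13 were lower and 0 higher, beside 22.7% of all genes in either direction, and DESeq2 called 2, both lower. Mx1 had the smallest adjusted p in edgeR, 0.078. The lowest value was that of Oas2, -1.37 (SE 0.36, edgeR adjusted p = 0.079), and the highest that of Irf1, 0.26 (SE 0.27, adjusted p = 0.58). With the term for Eif2s3y 1 was a DEG (of all genes 259, from 24), and with 2 libraries left out there were 3 (1297). Without HFpEF replicate 2 or untreated replicate 2, 1 was a DEG (260 and 933), and without HFpEF replicate 2 the median was -0.24.

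EMPA + PFD was compared with untreated for the effect of the combined treatment. 30 of the 38 genes had a log2 fold change below 0, with a median of -0.30, beside -0.03 over all genes. Irf1 was the 1 DEG, with lower levels, beside 1.48% of all genes. At the adjusted p alone Parp14 and Gbp2 were lower too, which makes 3, beside 5.52%, and Eif2ak2 was the 1 that was higher, beside 6.6%. 0 were DEGs with higher levels in edgeR, beside 2.34%, and 0 with DESeq2. At an unadjusted p under 0.05 1 was higher and 11 lower, beside 32.7% of all genes in either direction. These shares of the 38 are near those of all genes. The highest value was that of Oas2, 0.63 (SE 0.37, edgeR adjusted p = 0.25). With the term for Eif2s3y, which differs between these groups, 3 were DEGs (of all genes 429, from 473) and the median was -0.68. No DEG was left with relative log expression normalization, in a fit of the compared groups alone (5 of all genes), with DESeq2 (714), without untreated replicate 2 or 3, or without EMPA + PFD replicate 2 or 3.

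With 1 drug at a time, none of the 38 passed a threshold in edgeR. For EMPA against untreated, 0 were DEGs with higher and 0 with lower levels, beside 0.0161% and 0.0242% of all genes, and 0 with DESeq2. At an unadjusted p under 0.05 there were 0, beside 8.63% of all genes. For PFD against untreated, the counts were 0 and 0, beside 0.00807% and 0%, and 0 with DESeq2. There were 0 at an unadjusted p under 0.05, beside 5.21%. Medians over the 38 were 0.10 in EMPA, beside 0.01, and 0.05 in PFD, beside -0.02, and turned to -0.17 in EMPA with the term for Eif2s3y, to 0.27 without EMPA replicate 2, to -0.10 without EMPA replicate 1 and to -0.15 without PFD replicate 1. Oas2 had the highest log2 fold change in both, 0.65 (SE 0.41, edgeR adjusted p = 0.72) in EMPA and 0.85 in PFD (SE 0.40, adjusted p = 0.79). The lowest were Irf1 in EMPA, -0.54 (SE 0.31, edgeR adjusted p = 0.67), and Epsti1 in PFD, -0.61 (SE 0.45, adjusted p = 0.79). Whether the drugs together differed from their sum was tested as an interaction. In it 0 of the 38 were DEGs with higher and 0 with lower levels in edgeR, beside 0.00807% and 0%, and 0 with DESeq2. At an unadjusted p under 0.05 2 were lower, beside 9.13% of all genes in either direction. Log2 values of this interaction were below 0 for 37 of the 38, with a median of -0.51, beside -0.02. Both EMPA libraries had 0 counts of RT1-CE16, while the untreated, PFD and EMPA + PFD libraries had at least 308. That split and the interaction cannot be told apart. With 2 libraries in EMPA and in PFD, a change that missed the threshold is not shown to be absent.

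The regulators come first in the pathway. Of the 10 sensors and regulators in the counts, 2 were higher at the adjusted p in HFpEF against control 5w, beside 9.83% of all genes, 6 were higher in control 9w against control 5w, beside 17.3%, and 2 were lower in untreated against control 9w, beside 1.19%. Irf9, the subunit through which the interferon-induced complex binds DNA, stood at 31.5, 36.5 and 35.5 CPM in control 5w, 55.2, 58.8 and 63.4 in HFpEF, 74.7, 88.7 and 60.7 in control 9w and 44.0, 45.8 and 47.7 in untreated. All HFpEF and all control 9w libraries were above all control 5w libraries, and all untreated libraries were between them. Its log2 fold change was 0.78 (SE 0.14, edgeR adjusted p = 0.0031) in HFpEF and 1.11 (SE 0.14, adjusted p = 0.00017) in control 9w. In untreated against control 9w it was -0.70 (SE 0.14, edgeR adjusted p = 0.025). The week 9 call was lost without control 9w replicate 1 or 2 or untreated replicate 1 or 3 (edgeR adjusted p range over 15 alternatives 0.00024 to 0.29, fold -0.83 to -0.56), and with a replicate block, a term for Eif2s3y and a fit of the compared groups alone. The difference between the changes at the weeks was -1.48 (SE 0.20, edgeR adjusted p = 0.00082).

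Irf7, which drives further interferon production once it is induced, stood at 43.8, 87.1 and 68.4 CPM in control 5w, 85.3, 119 and 137 in HFpEF, 220.4, 245 and 129 in control 9w and 59.0, 58.1 and 79.1 in untreated. Control 9w was highest without overlap with untreated or control 5w, while HFpEF replicate 1 lay below control 5w replicate 2. The log2 fold change of Irf7 was 1.57 (SE 0.32, edgeR adjusted p = 0.0022) in control 9w against control 5w and 0.78 (SE 0.31, adjusted p = 0.088) in HFpEF. In untreated against control 9w it was -1.60 (SE 0.32, edgeR adjusted p = 0.025). This call was lost without control 9w replicate 1 or 2 or untreated replicate 1 or 3 (edgeR adjusted p range over 15 alternatives 0.00011 to 0.34, fold -1.83 to -1.42), and with a replicate block and a term for Eif2s3y. Its difference between the changes was -2.37 (SE 0.44, edgeR adjusted p = 0.0037). Stat2, the partner of Irf9, varied less and stood at 73.3, 81.8 and 75.8 CPM in control 5w, 94.1, 101 and 96.4 in HFpEF, 91.4, 112 and 74.8 in control 9w and 75.1, 82.2 and 83.5 in untreated. HFpEF lay above control 5w in every library, and untreated overlapped control 9w. Its difference between the changes, -0.54 (SE 0.18, edgeR adjusted p = 0.045), passed the threshold, while neither change did on its own, with 0.34 (SE 0.13, adjusted p = 0.072) in HFpEF and -0.21 (SE 0.13, adjusted p = 0.41) in untreated. That call was lost without control 5w replicate 1, 2 or 3, HFpEF replicate 1, 2 or 3, control 9w replicate 1 or 2 or untreated replicate 1 or 3 (edgeR adjusted p range over 22 alternatives 0.010 to 0.12, fold -0.68 to -0.39), and with no filter beyond 1 count, a replicate block, a term for Eif2s3y, a fit of the compared groups alone, HFpEF replicate 2 alone and 2 libraries left out.

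Irf1, a transcription factor that interferon gamma induces, followed another order and stood at 62.8, 48.1 and 54.4 CPM in control 5w, 49.4, 103 and 53.0 in HFpEF, 49.6, 63.6 and 41.7 in control 9w and 79.0, 81.2 and 85.7 in untreated. With treatment it was at 66.2 and 46.4 CPM in EMPA, 56.5 and 68.6 in PFD and 56.8, 33.5 and 31.6 in EMPA + PFD. HFpEF replicate 2 was far above the other HFpEF libraries, untreated lay above control 9w without overlap, and EMPA + PFD lay below untreated without overlap. Its log2 fold change in EMPA + PFD against untreated was -1.01 (SE 0.28, edgeR adjusted p = 0.034). This call was lost without untreated replicate 2 or 3 or EMPA + PFD replicate 2 or 3 (edgeR adjusted p range over 15 alternatives 0.0088 to 0.15, fold -2.02 to -0.84), and with a fit of the compared groups alone and 2 libraries left out. Untreated against control 9w gave 0.67 (SE 0.28, edgeR adjusted p = 0.21), and the difference between the changes at weeks 9 and 5 was 0.36 (SE 0.39, adjusted p = 0.54).

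Among the sensors of foreign RNA, Dhx58, which regulates the other helicases, stood at 4.52, 10.6 and 11.2 CPM in control 5w, 18.5, 20.0 and 21.2 in HFpEF, 22.6, 29.1 and 16.9 in control 9w and 12.7, 14.3 and 13.2 in untreated. Control 5w replicate 1 was lowest of all, and HFpEF and control 9w lay above the other control 5w libraries as well. On the log2 scale the change was 1.17 (SE 0.28, edgeR adjusted p = 0.012) in HFpEF, 1.37 (SE 0.28, adjusted p = 0.0024) in control 9w and -1.94 (SE 0.39, adjusted p = 0.0053) for the difference between the changes. The call in HFpEF was lost with a term for Eif2s3y, a fit of the compared groups alone and HFpEF replicate 2 as the only HFpEF library (edgeR adjusted p range over 16 alternatives 0.00055 to 0.080, fold 0.86 to 1.38). Ifih1, the sensor of long double-stranded RNA, stood at 31.3, 28.8 and 28.8 CPM in control 5w, 24.8, 46.8 and 38.3 in HFpEF, 48.5, 55.3 and 39.6 in control 9w and 30.7, 29.8 and 36.7 in untreated. Only control 9w stood clear of control 5w, at a log2 fold change of 0.69 (SE 0.21, edgeR adjusted p = 0.021). The Ifih1 call was lost without control 5w replicate 2 or 3 or control 9w replicate 1 or 2 (edgeR adjusted p range over 15 alternatives 0.0087 to 0.093, fold 0.57 to 0.81). Ddx58, the sensor of RNA ends, ran from 30.7 CPM (EMPA + PFD replicate 3) to 46.6 CPM (EMPA + PFD replicate 1), with no comparison past the threshold and the largest value in control 9w against control 5w, 0.28 (SE 0.16, edgeR adjusted p = 0.19). Zbp1, which binds nucleic acid in the left-handed form, ran from 1.04 CPM (EMPA + PFD replicate 3) to 7.82 CPM (HFpEF replicate 1) and had no call either, with 1.14 (SE 0.48, edgeR adjusted p = 0.10) in HFpEF.

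The antiviral effectors are the largest of the groups by role. Of 16, 7 were higher at the adjusted p in HFpEF, beside 9.83% of all genes, and 9 in control 9w, beside 17.3%, both against control 5w, and 9 were lower in the difference between the changes, beside 10.2%, where the median of the 16 was -1.51, beside -0.02 over all genes. Ifit3, a tetratricopeptide repeat protein that acts with its relatives on viral RNA, stood at 8.20, 13.0 and 11.9 CPM in control 5w, 35.4, 49.8 and 62.6 in HFpEF, 64.2, 91.6 and 49.2 in control 9w and 25.5, 22.9 and 39.2 in untreated. The lowest HFpEF library was above the highest control 5w library by more than the whole spread of control 5w, and all untreated libraries were below all control 9w libraries. Its fold change on the log2 scale was 2.15 (SE 0.32, edgeR adjusted p = 0.0011) in HFpEF, the largest of the 38 genes, and 2.62 (SE 0.33, adjusted p = 0.00015) in control 9w, again the largest. In untreated against control 9w the value was -1.23 (SE 0.31, edgeR adjusted p = 0.057), which missed the threshold, while the difference between the changes was -3.38 (SE 0.45, adjusted p = 0.00081). With treatment Ifit3 was at 49.4 and 36.7 CPM in EMPA, 56.6 and 26.3 in PFD and 32.3, 35.1 and 35.7 in EMPA + PFD, which overlaps untreated in each group.

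Ifit2, a relative of Ifit3 and next to it in the genome, stood at 55.1, 60.2 and 62.2 CPM in control 5w, 116, 199 and 168 in HFpEF, 187, 258 and 143 in control 9w and 105, 106 and 132 in untreated. Control 5w was lowest without overlap with any of the other 3 groups. The log2 fold change of Ifit2 was 1.44 (SE 0.22, edgeR adjusted p = 0.0013) in HFpEF, 1.73 (SE 0.23, adjusted p = 0.00019) in control 9w and -0.77 (SE 0.22, adjusted p = 0.078) in untreated. Its difference between the changes was -2.22 (SE 0.31, edgeR adjusted p = 0.00098). The calls of Ifit2 and Ifit3 in HFpEF, in control 9w and in that difference held under each alternative run.

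Mx1 and Mx2 are dynamin-like GTPases that block incoming viruses. Mx1 stood at 9.52, 31.7 and 21.7 CPM in control 5w, 40.3, 56.6 and 48.7 in HFpEF, 40.6, 52.8 and 35.4 in control 9w and 16.0, 21.5 and 21.2 in untreated. HFpEF had the highest mean and overlapped control 9w, and untreated lay within the range of control 5w. In log2 units the change was 1.20 (SE 0.33, edgeR adjusted p = 0.023) in HFpEF and 1.03 (SE 0.34, adjusted p = 0.028) in control 9w. The call in HFpEF was lost without control 5w replicate 1 or 3 or HFpEF replicate 2 (edgeR adjusted p range over 16 alternatives 0.0042 to 0.11, fold 0.86 to 1.63), and with a term for Eif2s3y, a fit of the compared groups alone and HFpEF replicate 2 alone. That in control 9w was lost without control 5w replicate 1 or 3 or control 9w replicate 1 or 2 (edgeR adjusted p range over 15 alternatives 0.0099 to 0.11, fold 0.68 to 1.45), and with a fit of the compared groups alone and 2 libraries left out. Mx2 stood at 20.4, 31.3 and 29.5 CPM in control 5w, 40.2, 99.5 and 72.7 in HFpEF, 104, 143 and 68.7 in control 9w and 46.4, 41.5 and 57.3 in untreated. HFpEF replicate 1 was well below the other HFpEF libraries yet above control 5w, and control 9w had the highest mean. Its log2 fold change was 1.38 (SE 0.32, edgeR adjusted p = 0.011) in HFpEF and 1.96 (SE 0.33, adjusted p = 0.00076) in control 9w. Between the changes Mx1 differed by -2.33 (SE 0.48, edgeR adjusted p = 0.0057). For Mx2, its call in HFpEF ended in a fit of the compared groups alone (edgeR adjusted p range over 16 alternatives 0.00056 to 0.069, fold 1.06 to 1.87). Mx2 differed by -2.50 (SE 0.45, edgeR adjusted p = 0.0034).

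The oligoadenylate synthetases join adenylates into short chains when they bind double-stranded RNA. Oas2 stood at 2.45, 5.12 and 4.70 CPM in control 5w, 8.83, 6.60 and 8.40 in HFpEF, 13.0, 19.2 and 12.2 in control 9w and 3.17, 2.60 and 3.48 in untreated. With treatment it was at 6.39 and 3.28 CPM in EMPA, 7.34 and 3.81 in PFD and 6.74, 3.23 and 4.28 in EMPA + PFD. The untreated libraries were below all control 9w libraries, and control 5w replicates 2 and 3 lay above untreated. Its fall in untreated against control 9w, -2.26 (SE 0.37, edgeR adjusted p = 0.012), was the largest of the 38 genes. This call was lost without control 9w replicate 2 or untreated replicate 1 (edgeR adjusted p range over 15 alternatives 4.6e-07 to 0.15, fold -2.64 to -2.03), and with a term for Eif2s3y. In control 9w against control 5w Oas2 rose by 1.84 (SE 0.36, edgeR adjusted p = 0.0018), and in HFpEF the value was 0.95 (SE 0.35, adjusted p = 0.069). Between the changes Oas2 differed by -3.21 (SE 0.51, edgeR adjusted p = 0.0018).

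Oas1a stood at 8.67, 10.01 and 10.5 CPM in control 5w, 18.5, 23.5 and 22.3 in HFpEF, 24.3, 25.7 and 17.5 in control 9w and 14.1, 10.1 and 13.5 in untreated. HFpEF and control 9w were clear of control 5w, and untreated replicate 2 lay inside control 5w. On the log2 scale the change was 1.14 (SE 0.26, edgeR adjusted p = 0.0096) in HFpEF, 1.21 (SE 0.26, adjusted p = 0.0033) in control 9w and -1.98 (SE 0.36, adjusted p = 0.0036) for the difference between the changes. Oasl, an oligoadenylate synthetase-like protein, stood at 5.37, 5.90 and 5.97 CPM in control 5w, 8.47, 12.7 and 14.5 in HFpEF, 16.0, 17.7 and 12.6 in control 9w and 10.8, 9.09 and 10.4 in untreated. All 3 other groups were above control 5w. The log2 fold change of Oasl was 1.04 (SE 0.25, edgeR adjusted p = 0.013) in HFpEF, 1.42 (SE 0.25, adjusted p = 0.0011) in control 9w and -1.65 (SE 0.35, adjusted p = 0.0073) for the difference. For Oasl, its call in HFpEF ended in a fit of the compared groups alone (edgeR adjusted p range over 16 alternatives 0.0013 to 0.058, fold 0.87 to 1.24). Oasl2 ran from 18.6 CPM (EMPA + PFD replicate 2) to 67.6 CPM (control 9w replicate 2) and had no call.

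Isg20, an exonuclease that degrades RNA, had few counts in control 5w and stood at 2.54, 3.03 and 2.15 CPM in control 5w, 5.53, 7.70 and 6.52 in HFpEF, 6.32, 8.61 and 4.59 in control 9w and 4.01, 5.28 and 5.27 in untreated. Its counts in control 5w were 27, 39 and 27. HFpEF and control 9w lay above control 5w in every library, and untreated overlapped control 9w. Its fold change on the log2 scale was 1.35 (SE 0.30, edgeR adjusted p = 0.0095) in HFpEF, 1.33 (SE 0.31, adjusted p = 0.0050) in control 9w and -1.77 (SE 0.43, adjusted p = 0.012) for the difference between the changes. Eif2ak2, the kinase that halts translation on double-stranded RNA, varied little and stood at 60.5, 76.6 and 80.1 CPM in control 5w, 74.8, 86.9 and 70.2 in HFpEF, 92.8, 102 and 84.7 in control 9w and 61.2, 63.0 and 65.1 in untreated. With treatment it was at 65.4 and 70.4 CPM in EMPA, 70.5 and 72.7 in PFD and 77.6, 78.8 and 92.9 in EMPA + PFD. Untreated was below control 9w in every library, and EMPA + PFD was above untreated in every library. In log2 units the change was -0.56 (SE 0.12, edgeR adjusted p = 0.032) in untreated against control 9w and 0.40 (SE 0.12, adjusted p = 0.046) in EMPA + PFD against untreated. The former call was lost without control 9w replicate 1 or 2 or untreated replicate 1 or 3 (edgeR adjusted p range over 15 alternatives 0.00061 to 0.62, fold -0.62 to -0.30), and with upper quartile normalization, no filter beyond 1 count, a term for Eif2s3y and a fit of the compared groups alone. The latter was lost without untreated replicate 1, 2 or 3 or EMPA + PFD replicate 2 or 3 (edgeR adjusted p range over 15 alternatives 0.0097 to 0.74, fold 0.14 to 0.46), and with upper quartile normalization, no filter beyond 1 count, a replicate block, a term for Eif2s3y, a fit of the compared groups alone and 2 libraries left out. In control 9w against control 5w it was 0.36 (SE 0.12, edgeR adjusted p = 0.031). That call was lost without control 5w replicate 1 or control 9w replicate 1 or 2 (edgeR adjusted p range over 15 alternatives 0.011 to 0.13, fold 0.25 to 0.44), and with no filter beyond 1 count, a fit of the compared groups alone and 2 libraries left out. The difference between the changes was -0.65 (SE 0.17, edgeR adjusted p = 0.017).

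Samhd1, which depletes deoxynucleotides and so limits DNA synthesis of viruses, was the 1 gene called lower in control 9w and higher in untreated, and stood at 9.61, 10.9 and 10.3 CPM in control 5w, 13.4, 11.1 and 10.9 in HFpEF, 5.75, 5.90 and 5.58 in control 9w and 11.8, 9.91 and 10.1 in untreated. With treatment it was at 12.7 and 9.35 CPM in EMPA, 10.7 and 10.8 in PFD and 10.6, 7.29 and 7.73 in EMPA + PFD. The 3 control 9w libraries were the lowest of all 19, with a narrow range. Its log2 fold change was -0.84 (SE 0.17, edgeR adjusted p = 0.0026) in control 9w against control 5w and 0.88 (SE 0.17, adjusted p = 0.025) in untreated against control 9w. The second call was lost without control 9w replicate 1 or 2 or untreated replicate 1 or 3 (edgeR adjusted p range over 15 alternatives 0.00064 to 0.35, fold 0.75 to 0.93), and with a term for Eif2s3y and a fit of the compared groups alone. The difference between the changes at the weeks, 0.68 (SE 0.24, edgeR adjusted p = 0.057), missed the threshold.

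Gbp2, a guanylate-binding protein that interferon gamma induces strongly, stood at 75.1, 82.1 and 94.2 CPM in untreated and 68.2, 38.9 and 52.5 in EMPA + PFD. EMPA + PFD was lower in every library, at a log2 fold change of -0.65 (SE 0.20, edgeR adjusted p = 0.045). This call was lost without untreated replicate 2 or 3 or EMPA + PFD replicate 2 or 3 (edgeR adjusted p range over 15 alternatives 0.015 to 0.20, fold -1.06 to -0.46), and with a replicate block, a term for Eif2s3y, a fit of the compared groups alone and 2 libraries left out. In the other groups Gbp2 was at 71.9, 75.6 and 78.6 CPM in control 5w, 96.7, 131 and 101 in HFpEF and 90.7, 101 and 67.2 in control 9w. Gbp5 ran from 22.8 CPM (EMPA + PFD replicate 2) to 65.1 CPM (HFpEF replicate 2) and had no call. Rsad2, an enzyme that makes a chain-terminating nucleotide, had the lowest log2 fold change of the 38 in EMPA + PFD against untreated, with 68.8, 44.0 and 102 CPM in untreated and 46.9, 26.9 and 28.8 in EMPA + PFD. The groups overlapped, and its log2 fold change, -1.06 (SE 0.44, edgeR adjusted p = 0.11), missed the threshold. Cmpk2, the mitochondrial nucleotide kinase encoded next to Rsad2, ran from 10.999 CPM (EMPA + PFD replicate 2) to 59.2 CPM (HFpEF replicate 2), and Bst2, which tethers virus particles to the cell surface, from 61.3 CPM (EMPA + PFD replicate 2) to 274 CPM (HFpEF replicate 2). In both, HFpEF replicate 2 was the highest library of the 19 and HFpEF replicate 1 was inside or below control 5w, and neither had a call.

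Of the 8 genes of the Isg15 and ADP-ribose systems, which include Usp18 and Trim25 from the regulators, 3 were higher at the adjusted p in HFpEF, beside 9.83% of all genes, 6 in control 9w, beside 17.3%, and 4 were lower in the difference between the changes, beside 10.2%. Isg15, the protein that is attached to others, stood at 12.6, 11.7 and 11.2 CPM in control 5w, 16.8, 26.7 and 19.5 in HFpEF, 26.5, 33.9 and 20.6 in control 9w and 14.0, 12.5 and 18.8 in untreated. HFpEF and control 9w were above control 5w in every library, and untreated was below control 9w. On the log2 scale the change was 0.82 (SE 0.28, edgeR adjusted p = 0.049) in HFpEF and 1.19 (SE 0.28, adjusted p = 0.0054) in control 9w. The call in HFpEF was lost without control 5w replicate 1, 2 or 3 or HFpEF replicate 2 or 3 (edgeR adjusted p range over 16 alternatives 0.026 to 0.17, fold 0.61 to 1.17), and with relative log expression normalization, no filter beyond 1 count, a replicate block, a fit of the compared groups alone, HFpEF replicate 2 alone and 2 libraries left out. For the difference between the changes it was -1.66 (SE 0.39, edgeR adjusted p = 0.011). Ube2l6, the enzyme that conjugates it, stood at 9.14, 18.2 and 17.7 CPM in control 5w, 23.3, 30.0 and 23.6 in HFpEF, 28.4, 27.9 and 21.3 in control 9w and 10.2, 14.2 and 15.5 in untreated. Untreated was below control 9w and HFpEF in every library and below control 5w replicates 2 and 3. Its fold change on the log2 scale was 0.77 (SE 0.25, edgeR adjusted p = 0.041) in HFpEF and 0.78 (SE 0.25, adjusted p = 0.025) in control 9w. In HFpEF the call was lost without control 5w replicate 1 or 3 or HFpEF replicate 1, 2 or 3 (edgeR adjusted p range over 16 alternatives 0.017 to 0.13, fold 0.52 to 1.00), and with a replicate block, a term for Eif2s3y, a fit of the compared groups alone, HFpEF replicate 2 alone and 2 libraries left out. In control 9w it was lost without control 5w replicate 1 or control 9w replicate 1 or 2 (edgeR adjusted p range over 15 alternatives 0.0090 to 0.081, fold 0.53 to 0.94), and with a fit of the compared groups alone and 2 libraries left out. Between the changes Ube2l6 differed by -1.73 (SE 0.35, edgeR adjusted p = 0.0058).

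Usp18, which removes Isg15 again and dampens the receptor, stood at 19.5, 20.8 and 23.3 CPM in control 5w, 24.0, 30.9 and 29.9 in HFpEF, 35.9, 42.6 and 22.8 in control 9w and 23.8, 18.8 and 25.9 in untreated. Control 9w replicate 3 overlapped control 5w. In log2 units the change was 0.67 (SE 0.23, edgeR adjusted p = 0.035) in control 9w against control 5w. That call was lost without control 5w replicate 1, 2 or 3 or control 9w replicate 1 or 2 (edgeR adjusted p range over 15 alternatives 0.0076 to 0.17, fold 0.47 to 0.89), and with a replicate block, a fit of the compared groups alone and 2 libraries left out. The difference between the changes, -0.98 (SE 0.32, edgeR adjusted p = 0.046), passed as well. It was lost without control 5w replicate 1, 2 or 3, HFpEF replicate 2 or 3, control 9w replicate 1 or 2 or untreated replicate 1, 2 or 3 (edgeR adjusted p range over 22 alternatives 0.012 to 0.13, fold -1.19 to -0.78), and with no filter beyond 1 count, a replicate block, a term for Eif2s3y, a fit of the compared groups alone, HFpEF replicate 2 alone and 2 libraries left out. Trim25, a ubiquitin ligase that helps the RNA sensor Ddx58, stood at 44.8, 42.7 and 43.4 CPM in control 5w, 41.6, 75.4 and 76.7 in HFpEF, 106, 140.1 and 73.4 in control 9w and 71.5, 64.8 and 79.1 in untreated. HFpEF replicate 1 was at the level of control 5w while the other HFpEF libraries were higher, and control 9w had the highest mean and overlapped HFpEF and untreated. Its log2 fold change was 1.29 (SE 0.28, edgeR adjusted p = 0.0038) in control 9w and 0.57 (SE 0.28, adjusted p = 0.16) in HFpEF.

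Parp9 and Dtx3l work as a pair that attaches ADP-ribose to ubiquitin, and their genes overlap. Parp9 stood at 49.3, 65.6 and 66.0 CPM in control 5w, 86.3, 109.6 and 95.7 in HFpEF, 96.6, 110.2 and 72.5 in control 9w and 65.9, 88.4 and 85.2 in untreated. HFpEF and control 9w were above control 5w in every library, and untreated overlapped control 9w. On the log2 scale the change was 0.69 (SE 0.18, edgeR adjusted p = 0.019) in HFpEF and 0.63 (SE 0.18, adjusted p = 0.017) in control 9w. The call in HFpEF was lost without control 5w replicate 1 or HFpEF replicate 2 (edgeR adjusted p range over 16 alternatives 0.0033 to 0.070, fold 0.56 to 0.86), and with a fit of the compared groups alone and 2 libraries left out. The call in control 9w was lost without control 5w replicate 1 or control 9w replicate 1 or 2 (edgeR adjusted p range over 15 alternatives 0.0044 to 0.087, fold 0.49 to 0.78), and with 2 libraries left out. Between the changes at the weeks Parp9 differed by -0.91 (SE 0.26, edgeR adjusted p = 0.024). That difference was lost without control 5w replicate 1, HFpEF replicate 2, control 9w replicate 1 or 2 or untreated replicate 1 (edgeR adjusted p range over 22 alternatives 0.0058 to 0.070, fold -1.08 to -0.77), and with a term for Eif2s3y. Dtx3l stood at 24.3, 31.7 and 30.9 CPM in control 5w and 42.3, 53.5 and 36.9 in control 9w. The 2 groups did not overlap, at a log2 fold change of 0.61 (SE 0.18, edgeR adjusted p = 0.020). This Dtx3l call was lost without control 5w replicate 1 or control 9w replicate 2 (edgeR adjusted p range over 15 alternatives 0.0075 to 0.11, fold 0.45 to 0.73), and with 2 libraries left out. Parp14, a mono-ADP-ribosyltransferase, stood at 72.7, 69.9 and 75.3 CPM in untreated and 50.6, 33.5 and 40.7 in EMPA + PFD. EMPA + PFD was lower in every library, at a log2 fold change of -0.80 (SE 0.15, edgeR adjusted p = 0.011). This Parp14 call was lost without EMPA + PFD replicate 2 (edgeR adjusted p range over 15 alternatives 0.00012 to 0.090, fold -1.14 to -0.66), and with a fit of the compared groups alone. Elsewhere Parp14 was at 49.7, 52.5 and 55.5 CPM in control 5w, 54.9, 74.0 and 62.2 in HFpEF and 62.6, 64.3 and 53.5 in control 9w. Parp12, a related enzyme, ran from 13.0 CPM (control 5w replicate 1) to 24.4 CPM (HFpEF replicate 2) and had no call.

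The remaining 6 genes have less defined roles, and 2 of them were higher at the adjusted p in HFpEF, beside 9.83% of all genes, and 3 in control 9w, beside 17.3%. Rtp4, a receptor transporter protein, stood at 11.1, 19.01 and 16.5 CPM in control 5w, 28.5, 51.4 and 34.7 in HFpEF, 41.2, 53.3 and 27.9 in control 9w and 23.6, 26.8 and 26.1 in untreated. HFpEF and control 9w were above control 5w in every library. Its fold change on the log2 scale was 1.29 (SE 0.28, edgeR adjusted p = 0.0082) in HFpEF, 1.39 (SE 0.28, adjusted p = 0.0025) in control 9w and -1.97 (SE 0.40, adjusted p = 0.0053) for the difference between the changes. For Rtp4, its call in HFpEF ended in a fit of the compared groups alone (edgeR adjusted p range over 16 alternatives 0.00027 to 0.054, fold 1.02 to 1.72). Ifi44 stood at 38.4, 65.9 and 66.3 CPM in control 5w, 80.1, 132 and 85.6 in HFpEF, 116, 148 and 91.3 in control 9w and 59.5, 77.8 and 76.6 in untreated. Control 5w replicate 1 was lowest of all 19, and untreated was below control 9w in every library. In log2 units the change was 0.80 (SE 0.24, edgeR adjusted p = 0.030) in HFpEF, 1.06 (SE 0.24, adjusted p = 0.0044) in control 9w and -1.53 (SE 0.34, adjusted p = 0.0081) for the difference. Its call in HFpEF was lost without control 5w replicate 1 or HFpEF replicate 2 (edgeR adjusted p range over 16 alternatives 0.0094 to 0.14, fold 0.54 to 1.21), and with a fit of the compared groups alone and 2 libraries left out.

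Ifi27 stood at 164, 357 and 324 CPM in control 5w, 359, 405 and 472 in HFpEF, 574, 689 and 429 in control 9w and 267, 320.2 and 296 in untreated. Control 5w replicate 1 was far below both of its partners, and HFpEF replicate 1 was next to control 5w replicate 2. Its log2 fold change was 1.00 (SE 0.30, edgeR adjusted p = 0.018) in control 9w and -1.49 (SE 0.42, adjusted p = 0.023) for the difference between the changes. The former was lost without control 5w replicate 1 or control 9w replicate 2 (edgeR adjusted p range over 15 alternatives 0.0035 to 0.081, fold 0.73 to 1.21), and with 2 libraries left out. The latter was lost without control 9w replicate 2 or untreated replicate 1 (edgeR adjusted p range over 22 alternatives 0.0039 to 0.071, fold -1.69 to -1.22), and with HFpEF replicate 2 alone. Epsti1, an epithelial stromal interaction protein, had the lowest log2 fold change of the 38 in control 9w against control 5w, -0.97 (SE 0.39, edgeR adjusted p = 0.069), without a call. It stood at 3.77, 8.77 and 9.07 CPM in control 5w, 15.0, 5.04 and 7.95 in HFpEF, 3.27, 3.07 and 4.69 in control 9w and 3.59, 5.76 and 4.74 in untreated, so that HFpEF replicate 1 was highest and control 5w replicate 1 was inside control 9w. In PFD it was at 3.40 and 2.78 CPM. Lgals3bp, a secreted glycoprotein that binds galectins, stood at 91.6, 209.9 and 179 CPM in control 5w and 204, 100.3 and 176 in HFpEF. These groups overlapped, and its log2 fold change was the lowest of the 38 in HFpEF, 0.00 (SE 0.27, edgeR adjusted p = 1.0). Over all libraries it ran from 75.3 CPM (EMPA + PFD replicate 3) to 209.9 CPM (control 5w replicate 2). Ifi35, a leucine zipper protein, ran from 14.4 CPM (EMPA + PFD replicate 3) to 36.7 CPM (HFpEF replicate 2). Neither had a call.

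**Figure D3:**
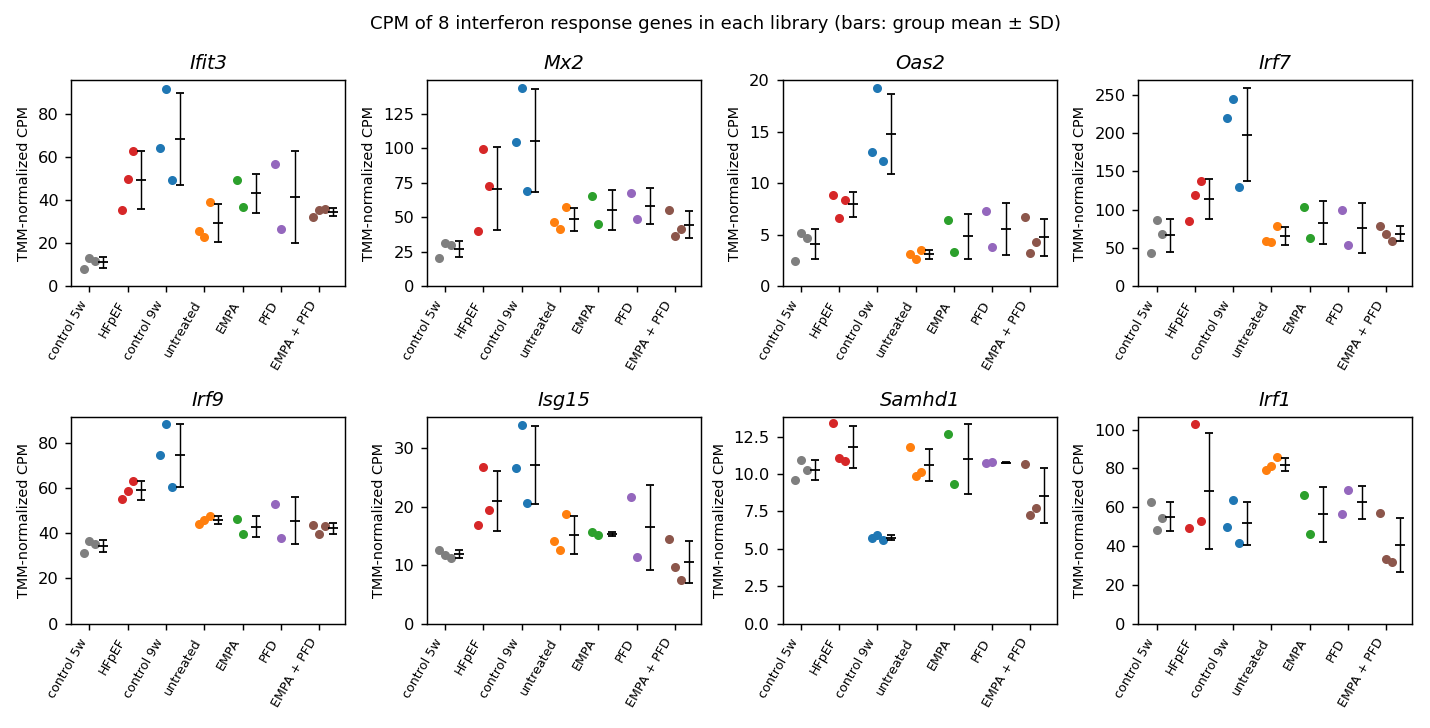
TMM-normalized CPM (vertical axis, from 0) of 8 interferon response genes in each library, by group (horizontal axis), with bars for the group mean ± SD. The means of Ifit3, Mx2, Oas2, Irf7, Irf9 and Isg15 are highest in control 9w, Samhd1 is lowest there at 5.58 to 5.90, and the mean of Irf1 is highest in untreated.

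Some of these genes may share reads with others, because the counting is not stated to use strand and the treatment of overlaps is not stated. In the RefSeq table of the GRCr8 assembly, counting protein-coding genes, Parp9 overlaps Dtx3l, Rtp4 overlaps Masp1, Parp12 overlaps Tbxas1 and Eif2ak2 overlaps an unnamed gene. Ddx58, Oasl and Oasl2 each overlap an unnamed gene that is not protein-coding. The values of these genes are uncertain to that degree. Near copies can split reads as well, which holds for Mx1 and Mx2, for Oas1a with Oas1b, Oas1i and Oas1k, for Oasl and Oasl2, for Ifi27 and Ifi27l2b, and for Gbp2 and Gbp5. Several of the 38 lie side by side in that table with 0 protein-coding genes between them, namely Ifit2 and Ifit3, Oasl and Oasl2, Rsad2 and Cmpk2, and Parp9, Dtx3l and Parp14, which the choice of the genes did not use.

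The rest of the pathway was followed on lists of other genes. Of 18 ligands and receptors, 11 were in the counts and 6 were tested. At the adjusted p 1 was higher in HFpEF, beside 9.83% of all genes, 2 were higher and 1 lower in control 9w against control 5w, beside 17.3% and 17.2%, 1 was lower in EMPA + PFD against untreated, beside 5.52%, and 1 was lower in the difference between the changes, beside 10.2%. Ifng, the gene of interferon gamma, had 2, 3 and 1 counts in control 5w and 4, 4 and 1 in HFpEF. At week 9 it had 9, 8 and 9 counts in control 9w, 3, 1 and 4 in untreated, 4 and 5 in EMPA, 1 and 4 in PFD and 1, 2 and 3 in EMPA + PFD. Control 9w was above both week 5 groups, at an edgeR adjusted p of 0.0066 against control 5w, and no fold is given because control 5w was within 3 counts of 0. Ifnb1 had 1 count in control 5w replicate 2 and 0 in every other library, and the genes Ifna1, Ifna2, Ifna4 and Ifnk had 0 to 2 counts in every library. Ifngr1, the ligand-binding chain of the interferon gamma receptor, stood at 150.5, 206 and 178 CPM in control 5w, 358, 223 and 351 in HFpEF, 379, 450 and 338 in control 9w and 175, 265 and 189 in untreated. It rose by 0.80 (SE 0.26, edgeR adjusted p = 0.041) in HFpEF and in control 9w against control 5w by 1.13 (SE 0.26, adjusted p = 0.0050) and differed between the changes by -1.70 (SE 0.37, adjusted p = 0.0076). Ifngr2, the other chain of that receptor, stood at 52.0, 66.3 and 59.4 CPM in control 5w and 38.6, 36.8 and 37.5 in control 9w. These groups did not overlap, and Ifngr2 was lower, at -0.65 (SE 0.13, edgeR adjusted p = 0.0023). Ifnar1, a chain of the type I interferon receptor, stood at 131, 139 and 146 CPM in untreated and 112, 91.5 and 113 in EMPA + PFD. EMPA + PFD was lower in every library, at -0.39 (SE 0.12, edgeR adjusted p = 0.045).

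Of 15 genes of JAK-STAT signaling, 1 was lower at the adjusted p in control 9w against control 5w, beside 17.2% of all genes, 1 was higher in EMPA + PFD against untreated, beside 6.6%, and 1 was higher in the difference between the changes, beside 9.76%. The lower gene was Ptpn6, a phosphatase of blood cells, at -1.10 (SE 0.34, edgeR adjusted p = 0.022). In EMPA + PFD the gene was Ptpn2, a phosphatase, at 0.37 (SE 0.11, edgeR adjusted p = 0.044). In the difference it was Socs2, a suppressor of cytokine signaling, at 1.45 (SE 0.39, edgeR adjusted p = 0.019).

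Of 29 genes of nucleic acid sensing, 23 were tested, and 2 were higher and 1 lower at the adjusted p in HFpEF, beside 9.83% and 10.2% of all genes, and 3 and 5 in control 9w against control 5w, beside 17.3% and 17.2%. The difference between the changes had 2 lower, beside 10.2%, 1 of them a DEG, beside 5.67%. In control 9w against control 5w 1 of the higher and 2 of the lower genes were DEGs, beside 7.46% and 7.21%. In EMPA + PFD against untreated 3 were lower, beside 5.52%, with a median of -0.25, namely Zc3hav1, at -0.63 (SE 0.14, edgeR adjusted p = 0.017), Sting1, at -0.97 (SE 0.26, adjusted p = 0.032), and Irf3, at -0.55 (SE 0.17, adjusted p = 0.047). Mavs, the mitochondrial adaptor of the RNA sensors, was the 1 DEG in HFpEF and stood at 158, 125 and 127 CPM in control 5w, 33.4, 95.7 and 72.8 in HFpEF, 89.1, 113 and 76.2 in control 9w and 119, 63.2 and 101 in untreated. HFpEF replicate 1 was lowest of all libraries, and its log2 fold change was -1.02 (SE 0.30, edgeR adjusted p = 0.029). In control 9w against control 5w, Irf5, a transcription factor of myeloid cells, was lower at -1.80 (SE 0.43, edgeR adjusted p = 0.0057). Tlr9, a sensor of DNA in endosomes, was lower as well, with 20, 22 and 34 counts in control 5w and 4, 0 and 8 in control 9w.

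Further interferon targets that are not among the 38 were counted apart. Of 67 listed, 49 were in the counts and 48 were tested, and 22 were higher at the adjusted p in HFpEF, beside 9.83% of all genes, with a median log2 fold change of 0.63. In control 9w against control 5w 24 were higher and 2 lower, beside 17.3% and 17.2%, with a median of 0.54. In untreated against control 9w their median was -0.23, and in EMPA + PFD against untreated 10 were lower, beside 5.52%, with a median of -0.52. The difference between the changes called 22 lower and 1 higher, beside 10.2% and 9.76%, with a median of -0.87. The DEGs of HFpEF were Slfn2, Ly6e, Oas1k, Apol3, Gbp4, Ifi27l2b, Plscr1, Oas1b, Lgals9, Casp4 and Phf11, all higher. Those of control 9w were Helz2, Oas1k, Oas1b, Phf11, Phf11b, Gbp4, Lgals9, Apol3, Casp4, Trim34, Uba7, Ifi27l2b and Ifit1, which were higher, and Ciita, the switch of class II antigen presentation, which was lower at -2.16 (SE 0.47, edgeR adjusted p = 0.0035).

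Oas1k had the largest change of these further targets and stood at 4.43, 2.87 and 4.06 CPM in control 5w, 20.6, 8.62 and 34.0 in HFpEF, 52.5, 47.2 and 29.5 in control 9w and 13.3, 8.93 and 12.4 in untreated. Every HFpEF, control 9w and untreated library was above every control 5w library, and the log2 fold change was 3.51 (SE 0.54, edgeR adjusted p = 0.00049) in control 9w and 2.48 (SE 0.53, adjusted p = 0.0072) in HFpEF. Uba7, the enzyme that activates Isg15, stood at 32.9, 27.9 and 30.3 CPM in control 5w, 40.4, 83.8 and 54.8 in HFpEF, 62.4, 98.1 and 45.6 in control 9w and 51.8, 55.5 and 67.6 in untreated. HFpEF and control 9w were above control 5w in every library, and the log2 fold change in control 9w was 1.18 (SE 0.27, edgeR adjusted p = 0.0050). In the difference between the changes the DEGs with lower values were Oas1k, Tdrd7, Ifi27l2b, Oas1b, Ly6e, Slfn2, Gbp4, Phf11, Ifitm3, Helz2, Sp110, Apol3, Phf11b, Casp4, Trim34, Lgals9, Mov10, Sp100, Ifitm1 and Uba7. The chemokine Cxcl11 was the 1 with a higher value, 2.76 (SE 0.88, edgeR adjusted p = 0.039), and stood at 10.4, 6.52 and 4.14 CPM in control 5w, 1.44, 1.93 and 3.13 in HFpEF, 4.40, 6.52 and 3.79 in control 9w and 13.3, 1.79 and 15.8 in untreated. Its HFpEF libraries were below all control 5w libraries, and untreated replicate 2 was below control 9w. In EMPA + PFD against untreated the 1 DEG was Ifi47, a GTPase that interferon gamma induces, with 42.6, 42.0 and 45.7 CPM in untreated and 30.9, 14.0 and 18.0 in EMPA + PFD. The groups did not overlap, at -1.05 (SE 0.22, edgeR adjusted p = 0.014).

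Markers of the cell types of the heart moved between the same groups, and their part in the results was not tested. The summed level of 7 endothelial markers, of which Vwf was the most abundant, was 1683, 1415 and 1628 CPM in control 5w, 1581, 3278 and 2652 in HFpEF, 3577, 3571 and 3164 in control 9w and 2769, 3192 and 2990 in untreated. With treatment it was 2819 and 2156 CPM in EMPA, 2313 and 2434 in PFD and 1973, 1693 and 1813 in EMPA + PFD. 3 of the 7 were higher at the adjusted p in HFpEF, beside 9.83% of all genes, 6 in control 9w against control 5w, beside 17.3%, and 2 were lower in the difference between the changes, beside 10.2%. HFpEF replicate 1, the lowest HFpEF library in the interferon response genes, was at the level of control 5w in these markers, and HFpEF replicate 2 was highest in both.

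The 5 markers of NK cells, Klrd1 the most abundant, summed to 15.7, 10.01 and 12.7 CPM in control 5w, 26.1, 36.2 and 28.3 in HFpEF, 51.9, 40.8 and 41.1 in control 9w and 34.7, 30.4 and 20.4 in untreated, with 59.4 and 12.6 in EMPA and 13.47 and 30.55 in PFD. 2 of the 5 were higher in HFpEF, beside 9.83%, and 2 in control 9w, beside 17.3%, both against control 5w, and 2 were lower in the difference between the changes, beside 10.2%. The 6 markers of T cells, Cd4 the most abundant, summed to 65.6, 111 and 97.9 CPM in control 5w, 199.6, 70.4 and 134 in HFpEF, 42.9, 29.4 and 41.9 in control 9w and 84.0, 94.8 and 52.7 in untreated, with 4 of 6 higher in HFpEF, beside 9.83%. Most of the sum in control 5w was Cd4, at 54.3, 95.9 and 81.5 CPM, which overlapped HFpEF at 140.9, 35.3 and 86.9. Cd3e, Cd3g, Cd3d, Cd2 and Cd8a were each higher in every HFpEF library than in every control 5w library, so the sum does not show their order. In control 9w against control 5w Cd4 was lower, at an edgeR adjusted p of 0.0037, and Cd2 was higher, at 1.53 (SE 0.39, adjusted p = 0.0079), beside 17.2% and 17.3%. Cd3e was higher in untreated against control 9w, at 2.50 (SE 0.57, edgeR adjusted p = 0.040), beside 0.589%, and Cd2 was lower in the difference between the changes, at -2.04 (SE 0.53, adjusted p = 0.017), beside 10.2%. The 10 markers of macrophages and monocytes, Lyz2 the most abundant, summed to 716, 2252 and 1820 CPM in control 5w, 3241, 700.4 and 1884 in HFpEF, 394, 309 and 469 in control 9w and 397, 905 and 476 in untreated. HFpEF replicate 1 was highest and HFpEF replicate 2 lowest of their group, the reverse of the endothelial markers. 6 of the 10 were lower in control 9w against control 5w, beside 17.2%.

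Heart muscle and connective tissue set the libraries that stand apart. The 8 cardiomyocyte markers, Myh6 the most abundant, summed to 82900, 34280 and 38410 CPM in control 5w, 11770, 24460 and 35160 in HFpEF, 36680, 43440 and 39870 in control 9w and 72070, 20380 and 61290 in untreated. The 6 fibroblast markers, Dcn the most abundant over all libraries, summed to 3140, 15310 and 12710 CPM in control 5w and 6770, 5420 and 5344 in HFpEF, with 2828, 2015 and 2710 in control 9w and 2678, 4827 and 2287 in untreated. In EMPA they summed to 2442 and 4702 CPM. Most of the sum in control 5w replicates 2 and 3 was Col1a1, which stood at 496.4, 9900.5 and 7974.1 CPM in control 5w, beside 2029.7, 2751.9 and 2597 for Dcn. Control 5w replicate 1 was high in the cardiomyocyte markers and low in the fibroblast markers, and untreated replicate 2 the reverse. Of the cardiomyocyte markers 2 were lower at the adjusted p in HFpEF, beside 10.2%, and 2 were higher in the difference between the changes, beside 9.76%, with a median of 1.57. Actc1 was lower in control 9w against control 5w, at -1.66 (SE 0.54, edgeR adjusted p = 0.028), beside 17.2%, and Ryr2 was higher in EMPA + PFD against untreated, at 1.10 (SE 0.33, adjusted p = 0.045), beside 6.6%. With treatment the cardiomyocyte markers summed to 47960 and 36460 CPM in EMPA, 65940 and 75610 in PFD and 70860, 96950 and 79940 in EMPA + PFD. Of the fibroblast markers 4 were lower in control 9w against control 5w, beside 17.2%. The 5 atrial markers, Nppa the most abundant, summed to 3485, 6639 and 5098 CPM in control 5w, 2495, 365 and 2195 in HFpEF, 5320, 241 and 23580 in control 9w and 173, 15030 and 572 in untreated. In the treated groups they summed to 861 and 5433 CPM in EMPA, 3163 and 221.7 in PFD and 302.9, 748.4 and 361.2 in EMPA + PFD. Untreated replicate 2 and control 9w replicate 3 were far above their partners, control 9w replicate 1 was far above replicate 2, and 2 of the 5 were lower in EMPA + PFD against untreated, beside 5.52%, and 1, Sln, was higher in control 9w against control 5w, beside 17.3%. In the other lists the summed levels over the 19 libraries were 4.14 to 63.9 CPM for neutrophils (4 of 4 markers in the counts, S100a9 the most abundant), with 63.9 and 21.6 in EMPA and 34.07 and 7.818 in PFD. They were 14.4 to 64.2 CPM for dendritic cells (5 of 6, Clec9a), 82.5 to 529.7 CPM for all leukocytes (4 of 4, Laptm5) and 737 to 2824 CPM for smooth muscle and pericytes (5 of 5, Pdgfrb), with 1015 in EMPA replicate 1 and the highest value in EMPA replicate 2. The erythroid markers (5 of 5, Hbb) summed to 1702, 1033 and 1622 CPM in control 5w, 1749, 1397 and 3884 in HFpEF, 1491, 1787 and 1153 in control 9w and 227, 181 and 297 in untreated, where all libraries were below those of the other 3 groups, with 2252 and 438 in EMPA. Of the 4 tested, 4 were DEGs with lower levels in untreated against HFpEF, beside 0.0807%, 2 were lower at the adjusted p in untreated against control 9w, beside 1.19%, and 3 were lower in the difference between the changes, beside 10.2%, with a median of -3.43. Hba-a1 was higher in HFpEF against control 5w, at 2.69 (SE 0.64, edgeR adjusted p = 0.012), beside 9.83%, and Slc4a1 in EMPA + PFD against untreated, at 3.74 (SE 0.68, adjusted p = 0.0089), beside 6.6%. In control 9w against control 5w 1 dendritic marker was higher and 1 lower, 1 marker of all leukocytes was lower, and 1 of smooth muscle was higher and 1 lower, beside 17.3% of all genes higher and 17.2% lower. The higher dendritic marker was Clec9a, at 1.54 (SE 0.29, edgeR adjusted p = 0.0016), and it was also higher in HFpEF, at 0.96 (SE 0.29, adjusted p = 0.032), beside 9.83%, and lower in the difference between the changes, at -1.85 (SE 0.41, adjusted p = 0.0083), beside 10.2%. 1 marker of smooth muscle was higher in that difference, beside 9.76%. No marker in the counts was at 0 in every library, and Mpo of neutrophils, Cd209a and Ly6d of the dendritic list and Hba-a2 had 0 to 2 counts each. Without both control 5w replicate 1 and untreated replicate 2, a choice made after seeing the data, 16 of the 38 genes were again DEGs of the difference between the changes at the weeks, with 6 in HFpEF, 14 in control 9w and 5 in untreated against control 9w. Without control 9w replicate 1 there were 14 in control 9w and 1 in untreated against control 9w. Without HFpEF replicate 1 there were 11 in HFpEF, and without control 9w replicate 3 there were 17 in control 9w and 4 in untreated against control 9w. Counts of all genes moved with libraries left out as well, as given above for untreated against control 9w. They are not given beside the other counts here. A change in the calls of the 38 therefore cannot be told apart from a change in the calls of all genes. Whether the 38 moved more than all genes was not tested.

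The promoters of these genes were searched for the motifs that the pathway is known for. The genes were listed as interferon response genes, so a high share of these motifs can come from that choice, whatever their levels here. RefSeq windows of 300 bases on GRCr8, from 250 bases before the gene start to 50 after it, were at hand for 29 of the 38. The core of the interferon-stimulated response element, searched as GAAANNGAA on both strands, was in 19 of 29 windows (65.5%), beside 9.71% of all 33469 windows. The core of the gamma-activated site, searched as TTCNNNGAA, was in 6 (20.7%), beside 8.87%, and 3 windows held both, whether or not the matches overlapped. GAAANNGAA was in 7 of the 13 windows of genes called in the difference between the changes and in 12 of the 16 others. A match describes these letters only and is not a binding site that was measured, and a window without one says nothing about the factor.

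Stretches of 100 bases are shown 5′ to 3′ in the direction of the gene for 8 genes with the motif and a call in a comparison, and for Irf9 and Samhd1, which had calls but no GAAANNGAA in their window. Capitals mark GAAANNGAA, or its reverse complement where it lies on the other strand. From RefSeq on GRCr8, Ifit3 is at chr1:241527247-241527346 (+ strand), Oas1a at chr12:41330382-41330481 (+ strand), Ifi44 at chr2:243303791-243303890 (- strand), Ifi27 at chr6:128355140-128355239 (+ strand) and Irf7 at chr1:205800038-205800137 (- strand). Isg20 is at chr1:142239921-142240020 (+ strand), Eif2ak2 at chr6:21941092-21941191 (+ strand), Parp14 at chr11:78408012-78408111 (+ strand), Irf9 at chr15:33065786-33065885 (+ strand) and Samhd1 at chr3:166214361-166214460 (- strand).
Ifit3: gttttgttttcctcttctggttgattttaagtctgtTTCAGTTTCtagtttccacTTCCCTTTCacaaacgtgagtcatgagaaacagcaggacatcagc
Oas1a: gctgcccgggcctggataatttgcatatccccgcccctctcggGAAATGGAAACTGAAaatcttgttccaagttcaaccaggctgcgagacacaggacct
Ifi44: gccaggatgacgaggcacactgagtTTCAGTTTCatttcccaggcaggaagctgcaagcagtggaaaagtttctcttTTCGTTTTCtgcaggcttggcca
Ifi27: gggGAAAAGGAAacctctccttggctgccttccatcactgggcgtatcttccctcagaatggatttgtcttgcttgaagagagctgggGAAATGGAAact
Irf7: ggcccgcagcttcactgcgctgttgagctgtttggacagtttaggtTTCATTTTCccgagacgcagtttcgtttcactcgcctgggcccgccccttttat
Isg20: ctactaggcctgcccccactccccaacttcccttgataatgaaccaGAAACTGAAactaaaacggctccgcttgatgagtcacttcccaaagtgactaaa
Eif2ak2: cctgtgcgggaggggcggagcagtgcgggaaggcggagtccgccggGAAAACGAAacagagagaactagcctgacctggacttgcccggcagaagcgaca
Parp14: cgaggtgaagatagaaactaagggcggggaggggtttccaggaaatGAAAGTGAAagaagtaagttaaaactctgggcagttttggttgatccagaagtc
Irf9: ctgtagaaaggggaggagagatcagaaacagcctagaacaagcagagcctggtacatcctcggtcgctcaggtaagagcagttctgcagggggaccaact
Samhd1: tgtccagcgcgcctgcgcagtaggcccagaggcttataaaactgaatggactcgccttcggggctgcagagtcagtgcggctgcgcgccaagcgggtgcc
Ifit3, Oas1a, Ifi44 and Ifi27 have 2 matches each, which overlap in Oas1a, and the others with capitals have 1.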

How the data were processed

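The deposited values were raw counts per gene symbol, 1 column of counts for each library. Per the labels and the methods of the authors, reads had been trimmed with Trim Galore, checked with FastQC, aligned to the rat assembly rn6 with HISAT2 and counted with HTSeq. The authors tested the counts with DESeq2 in the web application iDEP, whose version they state. Versions of the tools themselves, and strand and overlap settings, are not stated. Counts were tested here in R 4.3.3 with edgeR 4.0.16 (TMM, filterByExpr, quasi-likelihood F test, Benjamini-Hochberg over 12388 genes) in 1 model of all 19 libraries and 7 groups, with contrasts for the 7 comparisons and 2 interactions. Alternatives were other normalizations and filters, leaving out each library, a fit of the compared groups alone, a replicate block, a term for Eif2s3y counts, HFpEF replicate 2 alone, DESeq2 1.42.0, and 2 libraries left out together, which was chosen after seeing the data. An exact permutation test of 3 against 3 libraries cannot go below p = 0.1 (two-sided) and was not used. Plots were drawn in Python 3.11.15 with pandas 2.3.3 and matplotlib 3.10.9.

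The 41 symbols, the lists of pathway genes and of cell type markers (among them T cells, NK cells, macrophages and monocytes, neutrophils, dendritic cells, all leukocytes, endothelium, cardiomyocytes, fibroblasts, smooth muscle and pericytes, atrium, erythroid cells) were chosen with earlier results of these data known. Every symbol found was named. Those at an adjusted p under 0.05 in at least 1 of the 7 comparisons, and the highest and lowest log2 fold change of each comparison, were given with the value in each library of the compared groups. Other interferon genes were named where they were DEGs, and Oas1k, Uba7, Ptpn2, Ifngr2, Ifnar1, Zc3hav1, Sting1, Irf3, the single markers with a test value and the interferon genes with few counts were chosen for description after their values had been seen. Promoters were matched by symbol to RefSeq windows of GRCr8.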

Additional observations from a re-analysis of the deposited data

Results flagged for a closer look

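For 20 of the 38 interferon response genes the change with disease at week 9 (untreated minus control 9w) differed from that at week 5 (HFpEF minus control 5w) at an edgeR adjusted p under 0.05, and each had the lower value at week 9. The difference of the log2 fold changes was -3.38 for Ifit3, -3.21 for Oas2, -2.50 for Mx2, -2.37 for Irf7 and -2.33 for Mx1. It was -2.22 for Ifit2, -1.98 for Oas1a, -1.97 for Rtp4, -1.94 for Dhx58 and -1.77 for Isg20. For Ube2l6 it was -1.73, for Isg15 -1.66, for Oasl -1.65, for Ifi44 -1.53 and for Ifi27 -1.49. The smallest of the 20 were -1.48 for Irf9, -0.98 for Usp18, -0.91 for Parp9, -0.65 for Eif2ak2 and -0.54 for Stat2. Every untreated library lacked Eif2s3y counts and every control 9w library had them, so that this split and disease at week 9 cannot be told apart. With a term for Eif2s3y counts, estimated within HFpEF, 3 of the 20 lost their call, at an edgeR adjusted p of 0.084 for Stat2 (range over 22 alternatives 0.010 to 0.12), 0.090 for Usp18 (range over 22 alternatives 0.012 to 0.13) and 0.056 for Parp9 (range over 22 alternatives 0.0058 to 0.070). The differences were then -0.51 for Stat2 (from -0.54), -0.91 for Usp18 (from -0.98) and -0.81 for Parp9 (from -0.91).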

How the results depend on the processing

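The 16 genes of the 38 that were DEGs of the difference between the changes at weeks 9 and 5, and the 16 of control 9w against control 5w, stayed within 1.5 times as counts under each alternative run (the adjusted p alone gave 20 and 23). EMPA, PFD and their interaction gave 0 in edgeR and DESeq2 throughout, with 0, 0 and 2 at an unadjusted p under 0.05 in edgeR, beside 8.63%, 5.21% and 9.13% of all genes. The adjusted p alone, without a minimum fold change, called 14 in HFpEF against control 5w, 5 in untreated against control 9w and 4 in EMPA + PFD against untreated. A fit of the compared groups alone called 4 in HFpEF and 0 in EMPA + PFD (of all genes 460 and 5, from 1076 and 473). With the Eif2s3y term, 0 were called in untreated against control 9w, 1 in untreated against HFpEF and 3 in EMPA + PFD, and the median log2 fold change was -0.25 in untreated against control 9w, -0.68 in EMPA + PFD and -0.17 in EMPA. The edgeR adjusted p in untreated against control 9w was then 0.15 for Oas2, 0.35 for Samhd1 and 0.62 for Eif2ak2, the ranges being given with each gene. The log2 fold changes there were -2.64 for Oas2 (from -2.26), 0.75 for Samhd1 (from 0.88), -1.51 for Irf7 (from -1.60), -0.72 for Irf9 (from -0.70) and -0.30 for Eif2ak2 (from -0.56), and in EMPA + PFD -2.02 for Irf1 (from -1.01), -1.06 for Gbp2 (from -0.65) and 0.14 for Eif2ak2 (from 0.40). DESeq2 called 5 in untreated against control 9w, 2 in untreated against HFpEF and 0 in EMPA + PFD. Without both control 5w replicate 1 and untreated replicate 2, chosen after seeing the data, these counts were 5, 3 and 0. Relative log expression normalization called 0 in EMPA + PFD. Leaving out 1 library gave 0 to 4 in untreated against control 9w, 0 to 1 in untreated against HFpEF and 0 to 1 in EMPA + PFD. The cause was not tested.

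With a replicate block, which treats libraries of the same number as a pair, 1 was called in untreated against control 9w. The labels give no pairing, and the deviations of same-numbered libraries were correlated between -0.53 and 0.35, which does not show them as pairs. Among 66 results of single genes, 552 of 628 values under other settings and 414 of 516 with 1 library left out kept their call, 76 and 102 lost it, and 0 and 0 changed sign. At these depths Ifng, Zbp1, Isg20 and Oas2 rest on few counts, and EMPA and PFD have 2 libraries each, so small changes could be missed.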
